A study of Mus musculus with 11 samples.

Results

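The genes described here are those of AP-1 (activator protein 1), the family of transcription factors built from Fos and Jun proteins, together with the related factors Atf3, Maff and Batf. The cells were hematopoietic stem cells (HSCs) of the mouse, those of the bone marrow from which all blood cells arise. Of the 10 genes listed, 9 had a probe set annotated to that gene alone and were used: Fos, Fosb and Fosl2, then Jun, Junb and Jund, then Atf3, Maff and Batf. Fosl1 had only a probe set shared with Ccdc85b and was left out. These 9 genes were read as part of the 22180 genes with a single-gene probe set. The study injected mice with PBS (phosphate-buffered saline, the control), with ATRA (all-trans retinoic acid, an active form of vitamin A), with polyIC (a synthetic double-stranded RNA that mimics viral RNA and raises interferon; the group pIC), or with ATRA and then polyIC (the group RApIC). HSCs were sorted by flow cytometry after injection, and their RNA was measured on Affymetrix arrays, 1 array per sample. There were 3 PBS, 3 ATRA, 2 pIC and 3 RApIC arrays, 11 in all. The sources used here do not state the strain, age, genotype, doses, time after injection or sorting gate. Nothing in the labels says whether the replicates came from separate mice or pools, so the p-values below measure only the spread between these arrays, which may be partly technical, and the number of arrays limits their precision. The comparisons ask what polyIC did to these genes, with and without ATRA beforehand, and whether ATRA altered that response.

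AP-1 proteins bind DNA as pairs through a basic region and a leucine zipper. A Fos protein must pair with a Jun protein to bind, whereas Jun proteins can also pair with each other or with ATF proteins, and the pair decides which sites are read and whether transcription is raised or held down. Most of these genes are immediate early genes: they are switched on within minutes of a growth signal, cytokine or stress, without new protein synthesis, and their messenger RNAs are quickly destroyed. In blood-forming cells JunB is known for restraining stem cell expansion, and Batf for differentiation after DNA damage and for roles in lymphocytes.

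Values are log2 intensities as deposited, and a difference of 1 on this scale is a 2-fold change in signal. Intensities of different genes come from different probes and are not set against each other. A gene was called changed when its limma p-value, adjusted over all 22180 genes by the Benjamini-Hochberg method, was under 0.05, and "rose" and "fell" are used only of such genes. Of 12 HSC marker genes 11 were measured, which here means only that a gene had a single-gene probe set. Kit, the receptor for stem cell factor, stood between 12.31 and 12.46 on the PBS and ATRA arrays. These values do not establish the identity of the cells, which rests on the label. Relative to PBS, the median of the 11 HSC markers was lower on the pIC arrays, by -0.59 and -0.64, and on the RApIC arrays, by -0.63, -0.20 and -0.51. The median of 12 of 14 type I interferon targets was raised by 2.58 and 2.71 on the pIC arrays and by 2.97, 1.57 and 2.40 on RApIC replicates 1, 2 and 3. Markers of T and NK cells, of which 16 of 18 were measured, stood at a median of 0.43 and 1.14 above PBS on the pIC arrays and at 1.65, 0.04 and 1.40 on the RApIC arrays, against -0.09 to 0.14 on the PBS and ATRA arrays. The 5 of 9 erythroid markers measured stood at a median of 0.99 and 1.01 on the pIC arrays and at 0.59, -0.22 and 0.61 on the RApIC arrays. Neutrophil markers, 9 of 9 measured, stood at a median of 0.99 on ATRA replicate 1 and between -0.13 and 0.19 on the other arrays. The markers were split on ATRA replicate 1. Elane read 10.08 (PBS 5.99 to 6.32) and Mpo 9.47 (PBS 6.25 to 6.69), but Ltf read 5.50 (PBS 5.49 to 5.50) and Camp 4.13 (PBS 4.23 to 4.43). The medians of the B cell, the monocyte, macrophage and dendritic cell, and the mast cell, basophil and eosinophil markers lay between -0.23 and 0.40 on every array, and that of the megakaryocyte and platelet markers between -0.53 and 0.05. Within the monocyte list, however, 3 of 10 markers rose in pIC against PBS: Ly6c2 by 3.64 ± 0.75 (SE; limma adjusted p = 0.0112), Mpeg1 by 4.34 ± 0.67 (0.00363) and Fcgr1 by 1.45 ± 0.25 (0.00511), while Csf1r, the receptor that defines monocytes and macrophages, differed by 0.11 ± 0.11 (0.6). Of the 10 monocyte markers, 5 had negative differences, none of them called, with Lyz2 at -0.72 ± 0.22 (0.0528). Of the 6 megakaryocyte and platelet markers measured, out of 7 listed, 2 rose and 2 fell in pIC against PBS, which their median hides. Itgb3 read 9.14 to 9.44 on the PBS arrays and 10.38 and 10.44 on the pIC arrays. Pf4 read 11.61 to 11.87 on the PBS arrays and 10.94 and 11.15 on the pIC arrays. The markers of the neutrophil, monocyte and megakaryocyte lists were named after their values were seen. The part of these shifts in the results below was not tested. RApIC replicate 2 stood apart from the other arrays given polyIC, and on the first principal component it lay at -4.53, between the PBS and ATRA arrays (-24.5 to -15.2) and the other 4 (23.3 to 37.8). In sorted bulk RNA, fewer cells of a type and less RNA per cell cannot be told apart.

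The promoters of the 4 genes called in all comparisons of polyIC with its control, Fos, Fosb, Jun and Junb, are shown because these genes fell together; each is the 250 bases before the transcription start, taken from RefSeq on GRCm38.p6, written 5′ to 3′ along the gene's strand. They lie at chr12:85473640-85473889 on the plus strand for Fos, and on the minus strand at chr7:19310046-19310295 for Fosb, chr4:95052223-95052472 for Jun and chr8:84978749-84978998 for Junb. Capitals mark matches to the letters TGACG, the core of the cyclic AMP response element (CRE), or, in Jun, to TGACATCA, a variant site known to bind Jun and ATF pairs.
Fos: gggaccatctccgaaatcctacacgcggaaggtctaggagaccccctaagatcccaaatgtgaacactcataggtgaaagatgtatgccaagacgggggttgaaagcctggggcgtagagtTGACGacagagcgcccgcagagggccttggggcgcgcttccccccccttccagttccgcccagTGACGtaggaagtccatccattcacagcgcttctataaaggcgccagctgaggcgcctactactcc
Fosb: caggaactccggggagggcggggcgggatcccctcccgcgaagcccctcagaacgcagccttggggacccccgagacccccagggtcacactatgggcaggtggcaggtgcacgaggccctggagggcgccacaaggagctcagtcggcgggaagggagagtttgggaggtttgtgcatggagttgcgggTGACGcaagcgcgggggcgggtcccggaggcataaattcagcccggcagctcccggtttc
Jun: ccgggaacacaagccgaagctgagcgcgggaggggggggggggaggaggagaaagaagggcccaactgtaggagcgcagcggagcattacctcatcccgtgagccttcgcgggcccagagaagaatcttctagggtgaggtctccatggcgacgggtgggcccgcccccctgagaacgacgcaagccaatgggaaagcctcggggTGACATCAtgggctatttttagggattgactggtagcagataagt
Junb: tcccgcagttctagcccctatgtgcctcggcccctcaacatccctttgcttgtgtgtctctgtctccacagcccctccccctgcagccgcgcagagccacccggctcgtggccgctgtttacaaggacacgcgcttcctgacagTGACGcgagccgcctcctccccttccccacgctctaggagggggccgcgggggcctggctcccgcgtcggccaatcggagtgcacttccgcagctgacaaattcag
Counting the start site as +1, the CRE core lies at -129 to -125 and at -66 to -62 in Fos, at -60 to -56 in Fosb and at -106 to -102 in Junb, and the Jun variant site at -45 to -38 in Jun. RefSeq promoters were matched for all 9 genes, and the search covered both strands from 250 bases before to 50 after the start. The CRE core was found in 6 of the 9 genes, in 5 of them in the first start listed for the gene, and 21.0% of 27025 mouse promoters hold it in windows of the same length. Maff, which has 3 listed starts, holds its matches in the other starts, not the first. The full CRE, TGACGTCA, which contains that core, was found in Maff alone (1.88% of promoters), and TGACATCA in Jun and Maff (3.76%). The AP-1 site itself, TGAGTCA, was found in none of the 9 within this window and is held by 5.17% of promoters. The CArG box, the site read by serum response factor, was also found in none within it (1.57%). Sites further from the start were not searched, so these genes may hold either site there. The core of the interferon response element was found in Fosl2 (3.49%). Such matches describe letters in a window and are not evidence of binding.

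After polyIC, 4 of the 9 AP-1 genes fell relative to PBS and none rose: Fos 2.72-fold, Fosb 2.67-fold, Jun 1.70-fold and Junb 1.68-fold. Of all genes tested, 5.75% fell and 8.94% rose in the same comparison (60.9% of the calls were higher, or 48.8% after cyclic loess normalization of the gene values). Relative to ATRA, ATRA with polyIC lowered 5 of the 9, the same 4 genes and Fosl2, and raised none, against 3.71% of all genes lower and 3.5% higher. Relative to PBS, RApIC lowered 4 of the 9, Fos, Fosb, Jun and Junb, against 1.51% of all genes lower and 1.61% higher. The median difference over the 9 genes was -0.48 for pIC against PBS, -0.46 for RApIC against ATRA and -0.59 for RApIC against PBS, where the medians over all genes lay at 0.0013, -0.0033 and -0.0095. The comparisons of pIC and RApIC with PBS share the PBS arrays, and those of RApIC with ATRA and with PBS share the RApIC arrays. ATRA alone changed none of the 9.

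**Figure D1:**
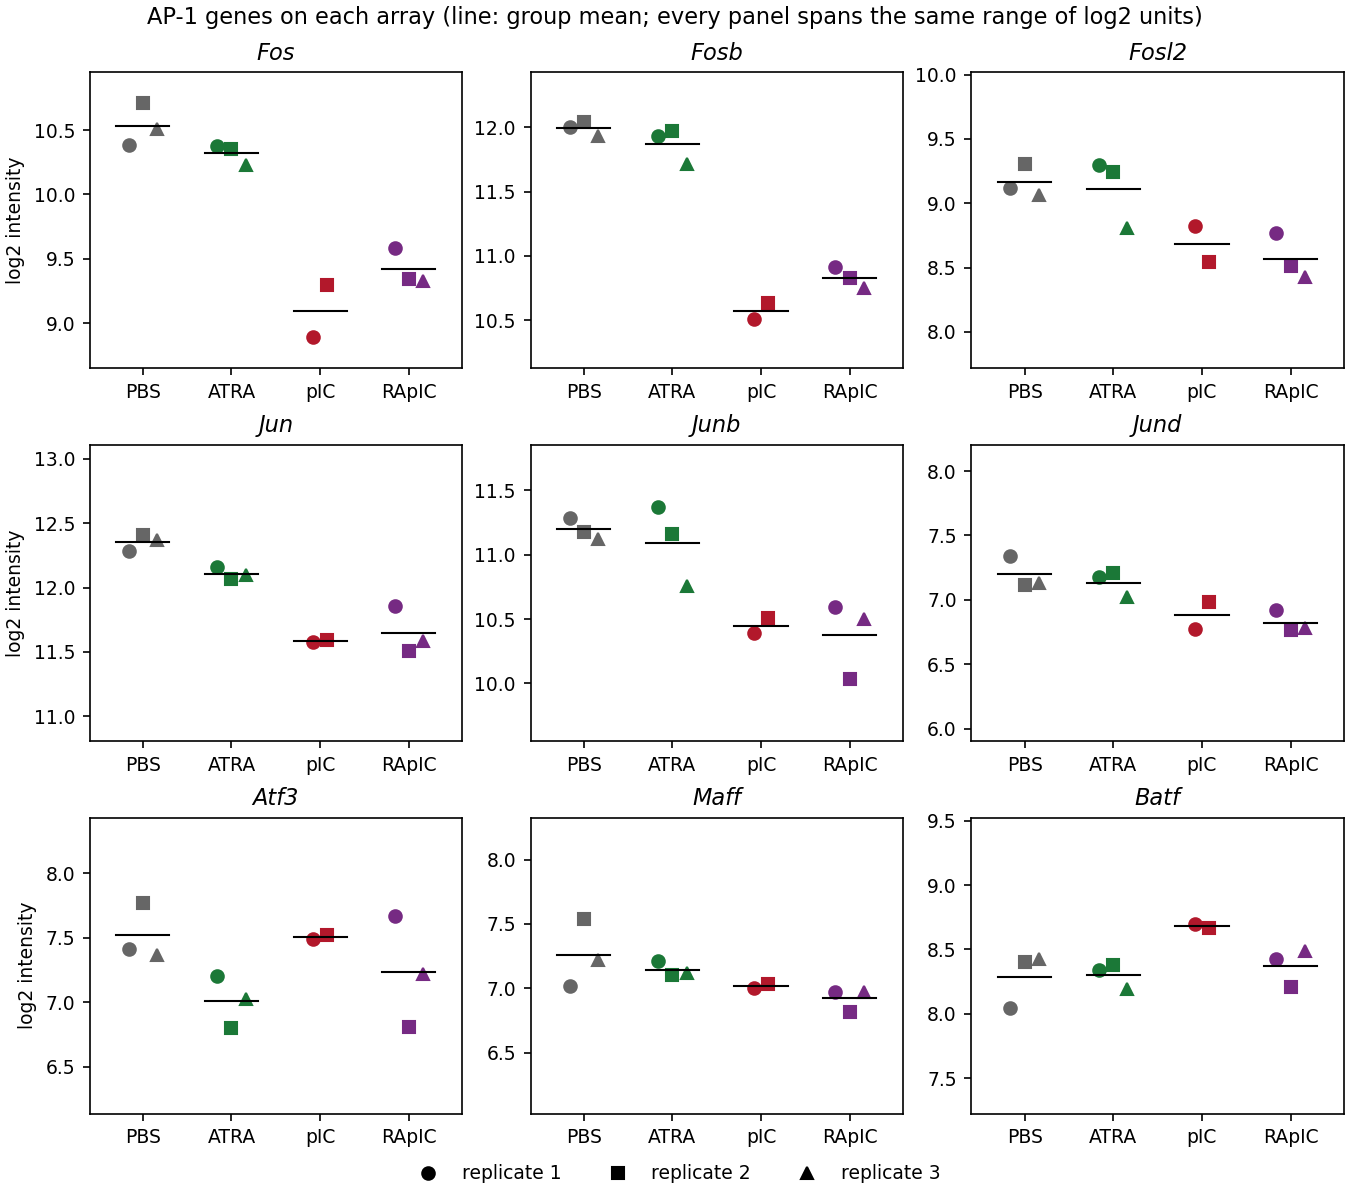
Log2 intensity of the 9 AP-1 genes (1 panel each) on every array, with arrays grouped as PBS, ATRA, pIC and RApIC, a symbol for each replicate number and a line at each group's mean. Fos, Fosb, Jun and Junb sit lower on all 5 arrays given polyIC than on all 6 others. For Atf3 the arrays with and without polyIC overlap. The share of all genes with arrays apart in this way was not computed.

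Among the Fos proteins, which bring a strong activating region to the pair, Fos (c-Fos) is the family's first-described member. Fos read 10.39, 10.71 and 10.51 on the PBS arrays, 10.37, 10.35 and 10.23 on the ATRA arrays, 8.89 and 9.30 in the pIC samples, and 9.59, 9.34 and 9.33 in RApIC. The lowest array without polyIC, at 10.23, was above the highest array with it, at 9.59. The share of all genes with arrays apart in this way was not computed. Here and for the AP-1 genes below, such separation only describes the values. Group means were 10.53 ± 0.16 (SD, n = 3) for PBS, 10.32 ± 0.08 (n = 3) for ATRA, 9.09 ± 0.29 (n = 2) for pIC and 9.42 ± 0.15 (n = 3) for RApIC. The difference of pIC from PBS was -1.44 ± 0.14 (SE; limma adjusted p = 0.000612), that of RApIC from ATRA -0.90 ± 0.12 (adjusted p = 0.00336) and that of RApIC from PBS -1.12 ± 0.12 (adjusted p = 0.00186).

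Fosb encodes FosB and, by splicing, the shorter and long-lived deltaFosB; the array value does not separate them. Fosb read 12.00, 12.04 and 11.93 on the PBS arrays, 11.93, 11.97 and 11.72 on the ATRA arrays, 10.51 and 10.63 in the pIC samples, and 10.91, 10.83 and 10.75 in RApIC. Every array with polyIC lay below every array without it, and the groups with polyIC spread little, with SDs of 0.09 (pIC, n = 2) and 0.08 (RApIC, n = 3). The difference of pIC from PBS was -1.42 ± 0.10 (SE; limma adjusted p = 0.000159), the lowest adjusted p of any AP-1 gene. RApIC differed from ATRA by -1.04 ± 0.09 (adjusted p = 0.000567), a 2.06-fold fall, and from PBS by -1.16 ± 0.09 (adjusted p = 0.000387).

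Fosl2 encodes Fra-2, a Fos-related protein that lacks the strong activating region of Fos and is usually made later and for longer. Fosl2 read 9.12, 9.31 and 9.07 on the PBS arrays, 9.30, 9.24 and 8.81 on the ATRA arrays, 8.82 and 8.55 in the pIC samples, and 8.77, 8.51 and 8.43 in RApIC. The PBS arrays all lay above the arrays with polyIC, but ATRA replicate 3 lay just below pIC replicate 1. Fosl2 fell in RApIC against ATRA by 0.54 ± 0.14 (SE; limma adjusted p = 0.0468). That call was lost when any array other than ATRA replicate 3 was left out (adjusted p up to 0.161). The difference of pIC from PBS, -0.48 ± 0.16 (95% interval -0.84 to -0.12, adjusted p = 0.0732), and that of RApIC from PBS, -0.59 ± 0.14 (adjusted p = 0.0543), missed the threshold. Both passed with the dimmest 40% of genes left out (0.0473 and 0.0343), the first also after cyclic loess of the gene values (0.046) or without ATRA replicate 3, and the second also with array weights (0.00815), with a trended and robust prior (0.0373) or without ATRA replicate 3.

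Jun (c-Jun) is the strongest activator of the Jun proteins and the partner most Fos proteins pair with. Jun read 12.29, 12.41 and 12.37 on the PBS arrays, 12.16, 12.07 and 12.10 on the ATRA arrays, 11.58 and 11.60 in the pIC samples, and 11.86, 11.51 and 11.58 in RApIC. The 3 ATRA arrays lay below the 3 PBS arrays, and the 5 arrays with polyIC below both. Relative to PBS, Jun fell by 0.77 ± 0.10 in pIC (SE; limma adjusted p = 0.0023) and by 0.70 ± 0.09 in RApIC (adjusted p = 0.0042, or 0.0632 with only those groups in the fit). Relative to ATRA it fell by 0.46 ± 0.09 in RApIC (adjusted p = 0.0169). The last call was lost without ATRA replicate 1, ATRA replicate 3 or RApIC replicate 3 (adjusted p 0.0514 to 0.0745) and with only those groups in the fit (0.0806).

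Junb, whose protein is a weaker activator that often opposes Jun and holds back cell cycle entry, read 11.29, 11.18 and 11.12 on the PBS arrays, 11.37, 11.16 and 10.76 on the ATRA arrays, 10.39 and 10.51 in the pIC samples, and 10.59, 10.04 and 10.50 in RApIC. All arrays with polyIC lay below all others, but the ATRA and RApIC arrays spread widely (SD 0.31 and 0.30, n = 3 each). Junb fell by 0.75 ± 0.19 in pIC against PBS (SE; limma adjusted p = 0.0235), by 0.72 ± 0.17 in RApIC against ATRA (adjusted p = 0.0295) and by 0.82 ± 0.17 in RApIC against PBS (adjusted p = 0.0294). None of these calls held under every removal of 1 array. The first was lost without PBS replicate 1 or 2 or either pIC array (adjusted p 0.0582 to 0.137), the second without ATRA replicate 1 or 2 or RApIC replicate 3 (0.0707 to 0.104), and the third without any 1 PBS array or RApIC replicate 3 (0.065 to 0.0927). With only the groups compared in the fit, the adjusted p of Junb was 0.118 against ATRA and 0.0888 against PBS.

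Jund is the Jun gene usually expressed at a steady level rather than induced. Jund read 7.34, 7.12 and 7.13 on the PBS arrays, 7.17, 7.21 and 7.02 on the ATRA arrays, 6.78 and 6.99 in the pIC samples, and 6.92, 6.77 and 6.78 in RApIC. The arrays with polyIC did not overlap the others, yet no comparison passed the threshold in the fit used here: the difference was -0.32 ± 0.11 for pIC against PBS (SE; limma adjusted p = 0.0724), -0.31 ± 0.10 for RApIC against ATRA (0.0769) and -0.38 ± 0.10 for RApIC against PBS (0.0612). With the dimmest 40% of genes left out all of these passed (0.0442, 0.0466 and 0.0374), and with array weights both RApIC comparisons did (0.0123 and 0.0107). A second Jund probe set, with a lower mean signal, gave -0.05 ± 0.14 for pIC against PBS (adjusted p = 0.881), so the 2 probe sets of Jund differ on the size.

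Atf3 encodes a stress-induced factor of the ATF group that mostly represses as a pair with itself. Atf3 read 7.41, 7.77 and 7.37 on the PBS arrays, 7.21, 6.80 and 7.02 on the ATRA arrays, 7.49 and 7.53 in the pIC samples, and 7.67, 6.81 and 7.22 in RApIC. The pIC arrays lay inside the range of the PBS arrays, and the RApIC arrays covered nearly the whole range of the gene. The difference of pIC from PBS was -0.01 ± 0.22 (SE; limma adjusted p = 0.986), with a 95% interval of -0.49 to 0.47 that leaves room for a change of moderate size either way. RApIC differed from ATRA by 0.22 ± 0.20 (adjusted p = 0.589).

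Maff is a small Maf protein that has no activating region of its own and works through its partners. Maff read 7.02, 7.54 and 7.22 on the PBS arrays, 7.21, 7.10 and 7.12 on the ATRA arrays, 7.00 and 7.03 in the pIC samples, and 6.97, 6.82 and 6.97 in RApIC. The RApIC arrays were below all PBS and ATRA arrays, but the differences missed the threshold in every comparison, at -0.24 ± 0.13 for pIC against PBS (SE; limma adjusted p = 0.273), -0.22 ± 0.12 for RApIC against ATRA (0.31) and -0.34 ± 0.12 for RApIC against PBS (0.142).

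Batf, whose protein pairs with Jun proteins and with interferon regulatory factors and also blocks Fos from pairing with Jun, was the only AP-1 gene with a positive difference in pIC against PBS. Batf read 8.05, 8.40 and 8.42 on the PBS arrays, 8.34, 8.37 and 8.19 on the ATRA arrays, 8.70 and 8.66 in the pIC samples, and 8.43, 8.21 and 8.49 in RApIC. Both pIC arrays lay above all others, whereas RApIC replicates 1 and 3 lay just above the highest PBS array and RApIC replicate 2 lay among the PBS and ATRA arrays. The difference of pIC from PBS was 0.39 ± 0.13 (SE; 95% interval 0.11 to 0.67), with a limma adjusted p of 0.0645. Without RApIC replicate 2 in the fit that adjusted p was 0.0433, which makes Batf the fifth AP-1 gene called in this comparison, and it also passed with array weights (0.0448) and with the dimmest 40% of genes left out (0.0404). Batf is also made by activated lymphocytes, and the T and NK cell markers were raised on both pIC arrays, at 0.43 and 1.14; their part in its value was not tested. RApIC replicates 1 and 3, where those markers stood at 1.65 and 1.40, read 8.43 and 8.49.

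**Figure D2:**
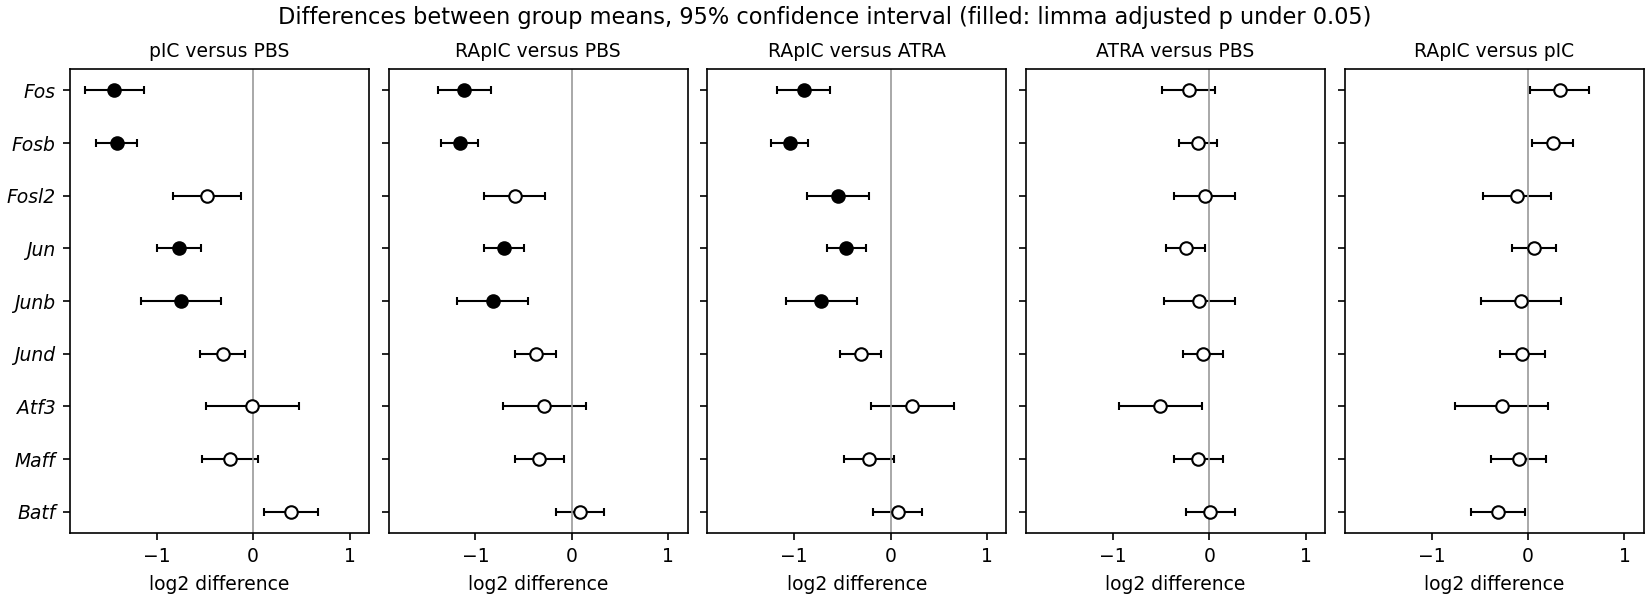
Difference in log2 intensity of each AP-1 gene in the 5 comparisons of groups, with 95% intervals from the limma fit and filled points for adjusted p under 0.05. The filled points are all negative and belong to Fos, Fosb, Jun and Junb, and to Fosl2 in RApIC against ATRA.

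RApIC replicate 2, the array with the weakest interferon response of those given polyIC, read low for the 4 genes. Relative to the PBS mean, Fos read -1.65 and -1.24 in pIC and -0.95, -1.19 and -1.21 in RApIC replicates 1, 2 and 3, and Fosb -1.48 and -1.36, then -1.08, -1.16 and -1.24. For these genes replicate 2 lay inside the range of the other 4 arrays, less low than 3 of them. Jun read -0.84 and Junb -1.16 on it, the lowest of any array for both. The median of its T and NK cell markers was near the PBS level, at 0.04. Cd3e, a chain of the T cell receptor complex, read 6.25 (PBS 6.33 to 6.82). Gzmb, a killer cell protease, read 4.78 (PBS 4.49 to 5.03), against 8.35 to 9.77 on the other 4 arrays with polyIC. Single markers on this array lay on both sides of the PBS range, as Nkg7 at 9.78 (PBS 8.79 to 9.46) and Prf1 at 6.23 (PBS 6.37 to 6.46). Its HSC markers, at -0.20, were the least lowered of the 5 arrays. This is 1 array, and how its AP-1 values relate to its interferon targets or its cell markers was not tested. Without RApIC replicate 2, RApIC differed from ATRA by -0.86 for Fos, -1.04 for Fosb, -0.39 for Jun and -0.55 for Junb, all called, and the AP-1 genes called were 5 in pIC against PBS, 4 in RApIC against ATRA, where Fosl2 was lost (adjusted p = 0.0678), and 4 in RApIC against PBS. Over all genes that fit called 3214 in RApIC against ATRA and 2469 in RApIC against PBS, in place of 1599 and 690.

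**Figure D3:**
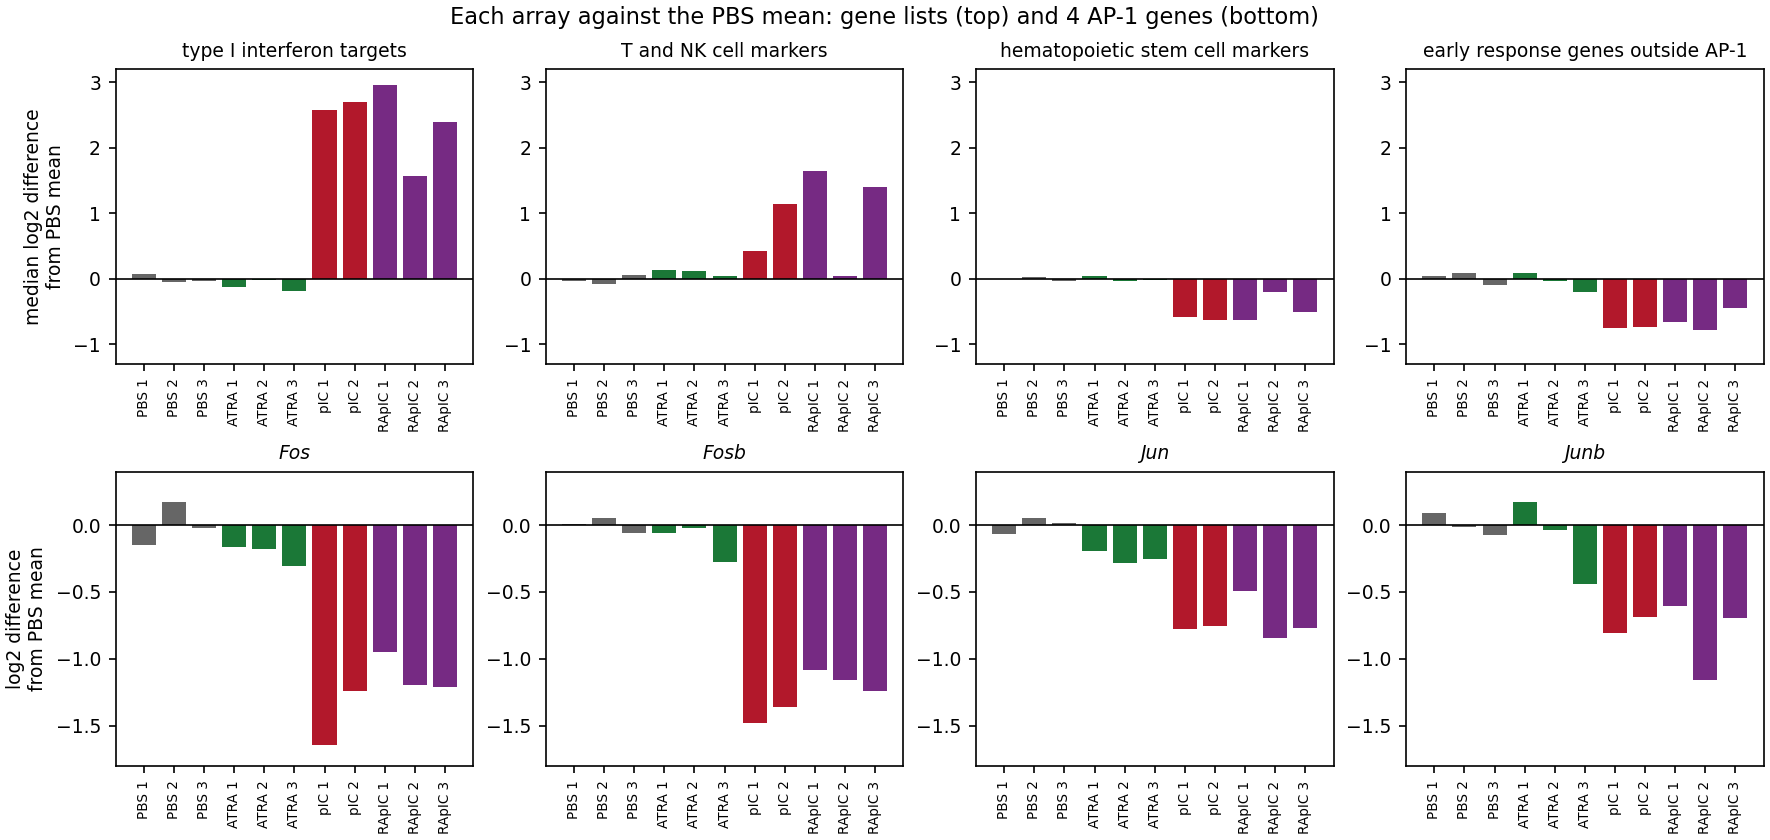
Bars of each array's difference in log2 intensity from the PBS mean, for Fos, Fosb, Jun and Junb (lower panels) and as the median of the type I interferon targets, T and NK cell markers, HSC markers and early response genes (upper panels). RApIC replicate 2 is at 1.57 for the interferon targets, 0.04 for the T and NK cell markers, -1.19 for Fos and -1.16 for Fosb.

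ATRA alone left the AP-1 genes without a called change. None of the 9 passed in ATRA against PBS with limma, where 0.00451% of all genes did, a single gene of 22180; at an unadjusted p under 0.05 there were 2 of the 9 and 6.8% of all genes. The 2 were Jun, at -0.24 ± 0.09 (SE; unadjusted p = 0.0231, adjusted p = 0.647), and Atf3, at -0.51 ± 0.20 (unadjusted p = 0.0251, adjusted p = 0.661). For Fos, Jun and Atf3 the 3 ATRA arrays lay below the 3 PBS arrays. The share of all genes with arrays apart was not computed, so this only describes the values. The signs were negative for 8 of the 9 genes and for 11221 of all 22180 genes. Batf was the exception among the 9, at 0.01 ± 0.11, but the sign of Fosl2, Junb, Jund, Maff or Batf turned when 1 array was left out. ATRA replicate 3 read low: relative to the PBS mean, the median of the 9 genes was -0.27 on it, against -0.05 and -0.04 on replicates 1 and 2. For the early response genes outside AP-1 the medians were -0.20, against 0.08 and -0.04. The same array enters RApIC against ATRA and the interaction, and what sets it apart was not tested.

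ATRA before polyIC, compared with polyIC alone, gave no called change in any AP-1 gene, nor in any gene tested (0% of 22180 with limma; at an unadjusted p under 0.05, 3 of the 9 AP-1 genes and 10.1% of all genes). Fos read 0.33 ± 0.14 higher in RApIC than in pIC (SE; unadjusted p = 0.0389, adjusted p = 0.463) and Fosb 0.26 ± 0.10 higher (unadjusted p = 0.0244, adjusted p = 0.417), with all RApIC arrays above both pIC arrays. Batf read -0.31 ± 0.13 relative to pIC (unadjusted p = 0.0345, adjusted p = 0.449), with all RApIC arrays below both pIC arrays. The RApIC arrays also lay below both pIC arrays for Maff, so that 4 of the 9 genes had arrays apart. The share of all genes apart in this way was not computed, and with so few arrays the separation is only a description. For Jun, Junb and Jund the arrays of the 2 groups overlapped, and the intervals of the difference, -0.16 to 0.29 for Jun, -0.48 to 0.34 for Junb and -0.29 to 0.18 for Jund, include 0.

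The interaction asks whether polyIC acted differently after ATRA: it is the difference of RApIC from ATRA less that of pIC from PBS. It passed for none of the 9 and for 0% of all genes with limma (unadjusted p under 0.05 for 3 of the 9 and for 6.27% of all genes). The 3 were Fos at 0.54 ± 0.19 (SE; unadjusted p = 0.0145, adjusted p = 0.775), Fosb at 0.37 ± 0.13 (unadjusted p = 0.0163, adjusted p = 0.775) and Jun at 0.31 ± 0.14 (unadjusted p = 0.0488, adjusted p = 0.794). In size, the fall of Fos was -0.90 after ATRA against -1.44 without it, and that of Jun -0.46 against -0.77. For Junb the falls were -0.72 and -0.75, with an interaction of 0.03 and a 95% interval of -0.52 to 0.58.

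Early response genes outside AP-1, which answer the same signals, moved with the Fos and Jun genes. Of 30 listed, 29 were measured; 18 fell and none rose in pIC against PBS, with a median of -0.77, and 16 fell and none rose in RApIC against ATRA, with a median of -0.54. The shares that fell, 62.1% and 55.2%, stand beside 5.75% and 3.71% of all genes. In RApIC against PBS 14 fell (48.3%, against 1.51% of all genes). With 1 array left out at a time these counts were 13 to 18, 12 to 16 and 10 to 14. On RApIC replicate 2 the list's median lay at -0.78 relative to PBS, the lowest of any array. The orphan nuclear receptor Nr4a1 read 11.64, 11.66 and 11.17 on the PBS arrays and 11.589, 11.355 and 10.179 on ATRA replicates 1, 2 and 3. It read 8.15 and 8.21 in the pIC samples, and 8.12, 8.67 and 9.05 in RApIC. In pIC against PBS it fell by 3.31 ± 0.37 (SE; limma adjusted p = 0.00104). Nfkbiz, a nuclear partner of NF-kappaB, fell by 1.28 ± 0.12 (adjusted p = 0.000565), Ppp1r15a, which restarts translation after stress, by 0.98 ± 0.08 (0.000491), and Dusp1, a phosphatase that switches off MAP kinases, by 0.98 ± 0.09 (0.000598). In RApIC against ATRA the falls were 0.88 ± 0.11 for Nfkbiz (adjusted p = 0.00225), 0.65 ± 0.07 for Ppp1r15a (0.00164) and 0.69 ± 0.08 for Dusp1 (0.00225). The list was not uniform: 6 of its 29 genes had positive differences in pIC against PBS. One of them, the heat shock gene Hspa1a, named after its values were seen, read 5.59, 5.05 and 5.45 on the PBS arrays and 6.02 and 8.07 on the pIC arrays (1.69 ± 0.58, adjusted p = 0.0768). Without RApIC replicate 2 in the fit, 2 of the list rose and 18 fell. Calls over all genes in pIC against PBS also moved with the arrays used, from 664 to 4052 with 1 array left out.

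Other basic leucine zipper factors, which can pair with or compete with AP-1 proteins, did not share a direction. Of 22 listed, 20 were measured; 3 rose and 2 fell in pIC against PBS, with a median of 0.0017, and none passed in RApIC against ATRA. The shares in pIC against PBS, 15% higher and 10% lower, rest on few genes and lie near the 8.94% and 5.75% of all genes. Ddit3 (CHOP), induced by stress of the endoplasmic reticulum, rose by 1.10 ± 0.20 (SE; limma adjusted p = 0.00623), Batf2, an interferon-induced relative of Batf, by 0.86 ± 0.13 (0.00354), and Nfe2l2 (Nrf2), which drives antioxidant genes, by 0.32 ± 0.09 (0.0319). Bach2, a repressor that guards stem-like states in lymphocytes, fell by 0.91 ± 0.13 (0.00316). On RApIC replicate 2, Batf2 read 7.43 and Ddit3 8.88, within the PBS ranges of 7.28 to 7.44 and 8.69 to 8.89, and Bach2 read 7.92, the highest of the 5 arrays with polyIC. With 1 array left out, 1 to 3 of the list rose and 1 to 2 fell in pIC against PBS; Ddit3 was lost without pIC replicate 2 (0.0636), and Nfe2l2 without PBS replicate 2 or 3 or either pIC array (up to 0.17). Without RApIC replicate 2, 2 of this list rose and 1 fell in RApIC against ATRA, in a fit that called 3214 of all genes in place of 1599.

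The kinases and serum response factors that act upstream of Fos and Jun, with 19 of 25 measured, gave 3 that rose and 1 that fell in pIC against PBS and none that passed in RApIC against ATRA, where 3 rose and 3 fell without RApIC replicate 2. That last fit called 3214 of all genes in RApIC against ATRA, in place of 1599. The shares in pIC against PBS were 15.8% higher and 5.26% lower, near those of all genes (8.94% and 5.75%). Mapkapk2, a kinase below p38, rose by 0.85 ± 0.18 (SE; limma adjusted p = 0.011), Map2k2, the kinase MEK2 that activates ERK, by 0.50 ± 0.13 (0.0273) and Srf, serum response factor, by 0.40 ± 0.12 (0.0443). Elk3, a partner of Srf that can repress Fos, fell by 0.39 ± 0.11 (0.034). None of these calls held with either pIC array left out, where no gene of the list passed (adjusted p up to 0.0957 for Mapkapk2, 0.134 for Map2k2, 0.215 for Srf and 0.232 for Elk3), and without PBS replicate 1 or 2 only 1 rose and none fell. Srf was also lost without ATRA replicate 1, ATRA replicate 3 or RApIC replicate 1. Among regulators of turnover and feedback, 11 of 15 measured, 2 fell and none rose both in pIC against PBS and in RApIC against ATRA (18.2% of the list in each, against 5.75% and 3.71% of all genes). They were Zfp36 (tristetraprolin), which destroys AU-rich messenger RNAs, at -1.07 ± 0.10 (0.000565) and -0.86 ± 0.09 (0.000921), and Nedd4, a ubiquitin ligase, at -0.48 ± 0.11 (0.0181) and -0.39 ± 0.10 (0.0407). Zfp36 kept its calls with any 1 array left out. Nedd4 lost the first without PBS replicate 1 or either pIC array (up to 0.103) and the second without any 1 array other than RApIC replicate 2 (up to 0.143). With RApIC replicate 2 left out, the fit with 3214 calls over all genes, 3 of the list fell and 1 rose in RApIC against ATRA.

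Genes known as AP-1 targets in other cells showed no shared direction, but part of the list read so low that a fall could hardly show. On the PBS arrays Il2 read 3.52 to 3.57, Mmp13 4.21 to 4.37, Mmp3 4.48 to 4.89 and Timp1 4.69 to 4.72. The median over all probe sets was 6.225 to 6.282 on those arrays. Of 21 listed, 20 were measured; 3 fell and 2 rose in pIC against PBS, with a median of 0.01, and 3 fell and 1 rose in RApIC against ATRA. The shares, 15% lower and 10% higher, then 15% lower and 5% higher, stand beside 5.75% and 8.94%, then 3.71% and 3.5%, of all genes. Ptgs2, cyclooxygenase 2, read 8.04, 7.95 and 8.02 on the PBS arrays, 6.54 on both pIC arrays, and 6.63, 6.92 and 6.92 on the RApIC arrays. It fell by 1.46 ± 0.18 in pIC against PBS (SE; limma adjusted p = 0.00167) and by 0.77 ± 0.16 in RApIC against ATRA (0.0195). Plaur, the urokinase receptor, fell by 0.71 ± 0.15 in pIC against PBS (0.0116), and Ccnd1, cyclin D1, by 0.79 ± 0.16 in RApIC against ATRA (0.0183). Mmp13, a collagenase, rose by 0.67 ± 0.16 (0.0199) and Il6, an inflammatory cytokine, by 0.63 ± 0.11 (0.00561) in pIC against PBS, but Il6 read only 3.32 to 4.19 on all arrays, where signal is low. Without RApIC replicate 2 in the fit, 6 of the list rose and 3 fell in pIC against PBS, and 5 rose and 3 fell in RApIC against ATRA. In RApIC against ATRA that fit called 3214 of all genes, against 1599 with every array. In pIC against PBS the calls over all genes were 664 to 4052 with 1 array left out. With either pIC array left out 1 rose and 1 fell in pIC against PBS, where Ptgs2 kept its call, Plaur lost it (up to 0.0881), Il6 lost it without pIC replicate 1 (0.0588), and Mmp13 lost it without PBS replicate 2 or 3 or pIC replicate 2 (up to 0.185). In RApIC against ATRA none fell without ATRA replicate 1 or 2 or RApIC replicate 1 or 3, so that the calls of Ptgs2 (up to 0.0794) and Ccnd1 (up to 0.0709) were lost. In ATRA against PBS and in RApIC against pIC no gene of the 5 lists passed with limma; the lowest adjusted p was 0.306, for the kinase Rps6ka3 in ATRA against PBS, and 0.242, for the antiproliferative gene Btg1 in RApIC against pIC.

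**Figure D4:**
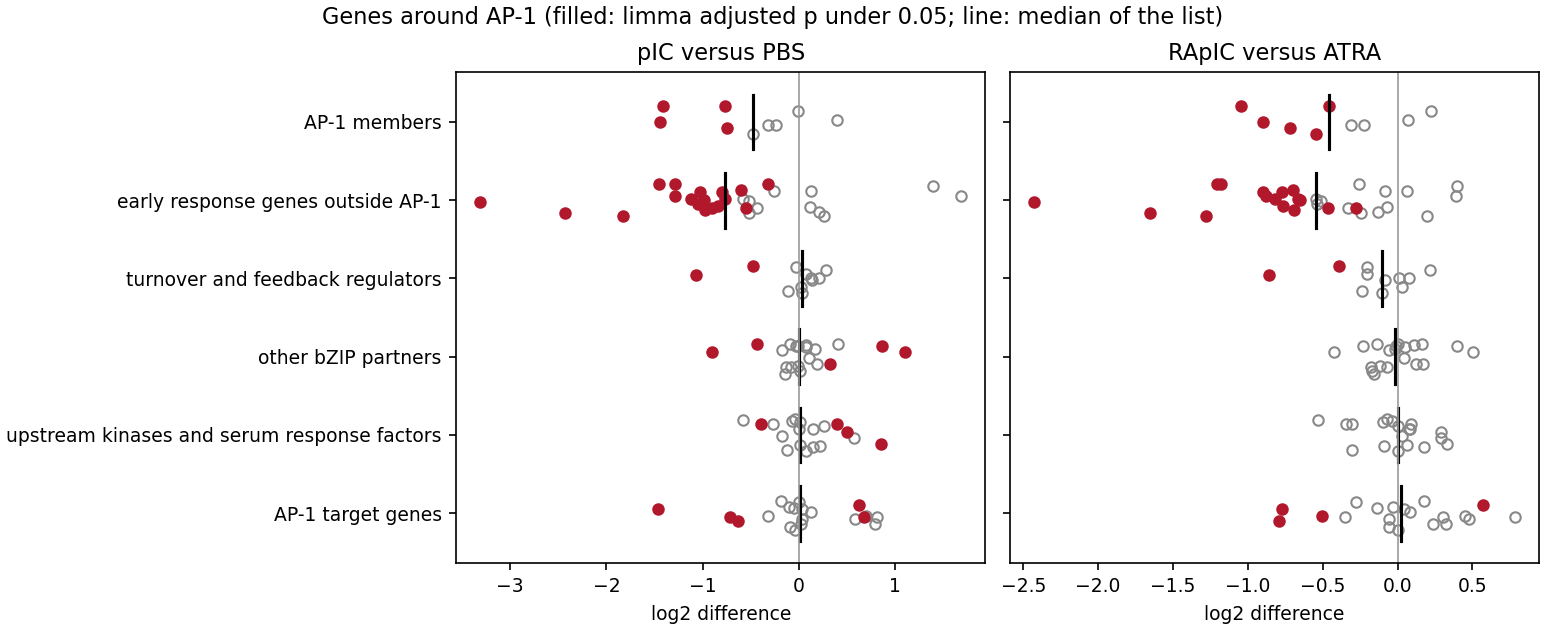
Difference in log2 intensity of each gene in the AP-1 set and the 5 lists around it, for pIC against PBS and RApIC against ATRA, with filled points for adjusted p under 0.05 and a line at each median. The early response genes lie mostly below 0, at medians of -0.77 and -0.54, and the other 4 lists lie on both sides of it.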

How the data were processed

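The labels name mouse HSCs sorted after injection of PBS, ATRA, polyIC or both, 1 Affymetrix array per sample. The deposited values are log2 intensities per probe set; the submitters' processing notes name RMA, oligo 1.36.1 and limma 3.28.20, without role or order. Of 41345 probe sets, 23521 carried 1 gene symbol in the platform annotation. They gave 22180 genes; for the 1082 with several probe sets, the one with the highest mean was used. The values were not normalized again.

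All 11 arrays and 4 groups were fitted together with limma 3.58.1 in R 4.3.3 (group means, empirical Bayes), with p-values adjusted over 22180 genes by Benjamini-Hochberg and a threshold of 0.05. The script was tested on simulated data. Intervals are 95%. The AP-1 genes, gene lists and marker lists were chosen with earlier results of these data known. Genes of a list were named by smallest adjusted p, up to 4 in pIC against PBS and up to 3 in other comparisons. For each of 8 AP-1 genes the 4 most alike genes were named by Pearson's r. Only genes outside the AP-1 list with a mean above the median of all genes were searched. Alternatives were array weights, a trend, a filter leaving out the dimmest 40% of genes, cyclic loess, the mean of probe sets, only the groups compared, the replicate number as a term, and leaving out each array. Cyclic loess of gene values and list counts without single arrays were added after seeing the data. Promoters came from RefSeq (GRCm38.p6). No raw array files were used here.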

Additional observations from a re-analysis of the deposited data

How the results depend on the processing

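Fos and Fosb kept direction and call in pIC against PBS, RApIC against ATRA and RApIC against PBS under all 20 alternatives, and Jun did in the first of these. The 4 AP-1 genes called in pIC against PBS became 7 with the dimmest 40% of genes left out. The 5 called in RApIC against ATRA became 2 with only the groups compared in the fit and 2 to 4 with 1 array left out, and the 4 in RApIC against PBS became 2 with only the groups compared. Over all genes the calls were 3260 in pIC against PBS (664 to 4204 over the alternatives), 1 in ATRA against PBS (1 to 28), 0 in RApIC against pIC (0 to 112), 1599 in RApIC against ATRA (305 to 4588), 690 in RApIC against PBS (70 to 3127) and 0 for the interaction (0 to 1). Without RApIC replicate 2 they were 3214 in RApIC against ATRA and 2469 in RApIC against PBS. The causes were not tested.

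Differences near 0 turned sign. Array weights gave 0.044 for Atf3 in pIC against PBS, -0.021 for Batf in ATRA against PBS, 0.030 for Junb in RApIC against pIC and -0.034 for Jund in the interaction. Cyclic loess of all probe sets gave 0.020 for Atf3 in pIC against PBS, that of gene values 0.0086 for Fosl2 in the interaction, and the mean of probe sets -0.044 for Jund in the interaction. With 1 array left out, Atf3 ranged from -0.085 to 0.12 in pIC against PBS and Batf from -0.037 to 0.17 in RApIC against PBS. In ATRA against PBS the ranges were -0.14 to 0.10 for Fosl2, -0.24 to 0.066 for Junb, -0.10 to 0.0083 for Jund, -0.23 to 0.025 for Maff and -0.11 to 0.079 for Batf. In RApIC against pIC they were -0.25 to 0.023 for Fosl2, -0.041 to 0.13 for Jun, -0.18 to 0.097 for Junb and -0.16 to 0.046 for Jund, and in the interaction -0.22 to 0.072 for Fosl2, -0.14 to 0.20 for Junb, -0.10 to 0.11 for Jund and -0.12 to 0.14 for Maff.

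Same-numbered arrays did not deviate together (r -0.109 to 0.0976 over 15 pairs), so the numbers were not taken as pairs. With the replicate number as a block, 5 AP-1 genes were called in pIC against PBS, 5 in RApIC against ATRA and 5 in RApIC against PBS; Fosl2 passed in pIC and in RApIC against PBS (adjusted p = 0.0249 and 0.0351), and in the interaction it read 0.026.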

Other observations

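Pearson's r over the 11 arrays is given as a description, because the arrays with and without polyIC lie apart for many genes. The search left out the AP-1 genes themselves (Fos with Fosb gave 0.983). It was also limited to genes whose mean signal lay above the median of all genes. Among these, the gene most like Fos was Dusp1 (0.988), followed by Art4, a surface antigen of red cells (0.982), Zfp36 (0.976) and Ppp1r15a (0.971). The same 4 genes were most like Fosb, led by Dusp1 at 0.993. For Jun they were Tob1, an inhibitor of proliferation (0.971), Rgs2 (0.970), Rhob (0.968) and Dusp1 (0.964), and for Junb Slc38a2, an amino acid transporter (0.959), Spry2 (0.941), Klf6 (0.929) and Stk17b (0.928). Fosl2 was closest to Klf4 (0.936), Mir23a (0.931), Gipc3 (0.926) and Fndc4 (0.925).

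In the same search the genes most like Atf3 were Etfdh (0.968), Rpl7a (0.884), Gtf2b (0.867) and Plk3 (0.855). For Maff they were Rps26 (0.946), Zfp358 (0.931), Dnajb4 (0.925) and Fis1 (0.920), and for Batf Haus7 (0.957), Epop (0.950), Zcrb1 (0.950) and Nipsnap3b (0.948). The share of positive pairs over all genes was not computed, and pairs of AP-1 genes draw on the same genes, so their count only describes the values. After each group's mean was taken away, 34 of the 36 pairs of AP-1 genes had a positive r over the 11 arrays, with a median of 0.422. The highest was Jun with Atf3, at 0.896: within RApIC, replicate 1 was highest and replicate 2 lowest for both, and within PBS replicate 2 was highest for both.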
